A study of Mus musculus with 10 samples.

Results

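The transcription factors that give brown adipocytes their identity were represented by 10 genes, Prdm16, Ebf2, Zfp516, Irf4, Cebpa, Cebpb, Cebpd, Tbx15, Lhx8 and Zic1. They were taken by gene symbol from a table of 54347 gene records, and the rule uses no measured value. The choice of genes was made with earlier results of these data known. All 10 were counted in every mouse and all 10 passed the filter on low counts, as did 13732 genes in total. The counts came from poly A RNA of interscapular brown adipose tissue (iBAT), which lies between the shoulder blades and produces heat.

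The tissue was taken from 10 chow-fed mice of the C57BL/6N background at 12 weeks of age, each kept alone at 4 °C for the last 24 h. In 5 of them (ΔGm15551, replicates 1, 2, 4, 5 and 7) a CRISPR/Cas9 deletion had removed exon 1 of the long non-coding RNA gene Gm15551 in all cells of the body, and the line had been backcrossed to wild type. The other 5 (replicates 2, 3, 5, 6 and 7) were wild type litter mates, and no mouse kept in the warm belonged to the comparison. The comparison asks whether loss of Gm15551 goes along with other levels of the identity factors in cold-exposed iBAT.

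Brown adipocytes arise from precursors that share a lineage with skeletal muscle and dermis. PRDM16, a zinc finger coregulator, and EBF2, a helix-loop-helix factor that marks the committed precursor, hold the brown program in place, while the C/EBP factors drive the step from precursor to fat cell together with PPARG. ZFP516 and IRF4 link cold and adrenergic signals to genes of heat production such as Ucp1, and Tbx15, Lhx8 and Zic1 are developmental regulators. RNA of Lhx8 and Zic1 marks the interscapular depot against white fat, while Tbx15 is also expressed in subcutaneous white fat.

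The total count per mouse ran from 9680976 to 15771170. Gm15551 had a count of 0 in all 5 ΔGm15551 mice and 1, 2, 6, 7 and 0 counts in wild type replicates 2, 3, 5, 6 and 7, so wild type exceeded ΔGm15551 at least 5.79-fold against a pooled floor of 3 counts (exact permutation test, two-sided, p = 0.0476). All 18 genes typical of brown adipocytes and all 10 general adipocyte genes looked at were well counted. Ucp1, in TMM-scaled CPM (counts scaled to a common library size), was at 8244 ± 1058 CPM in wild type (SD, n = 5). Counts on 10 skeletal muscle genes made up between 0.000144% and 0.198% of the total in ΔGm15551 and between 0.000159% and 0.302% in wild type, with the highest shares in ΔGm15551 replicate 4 and wild type replicate 7. The wild type replicates 5, 6 and 7 carry mouse numbers of a higher series that holds no ΔGm15551 mouse, so for these 3 mice the series and the genotype cannot be told apart.

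None of the 10 factors differed between genotypes at an adjusted p under 0.05. Every adjusted p was 0.9998 (edgeR quasi-likelihood test, Benjamini-Hochberg adjustment over 13732 genes), and 0% of all genes were called. At an unadjusted p under 0.05 there were 2 of the 10 factors, Lhx8 and Zic1, beside 1.59% of all genes, and DESeq2 and limma-voom also called 0 factors after adjustment, with 2 and 1 at an unadjusted p under 0.05. For 0 of the 10 did the groups stay apart without overlap, which was the case for 0.32% of all genes. The log2 fold change (log2FC, ΔGm15551 minus wild type) was above 0 for all 10, with a median of 0.19, while the median over all genes was -0.00087 and 49.7% of genes lay above 0. This count of 10 went down to between 7 and 9 in 7 of the 10 fits that left out 1 mouse, and it is a description of factors that share the same 10 libraries. The 95% confidence interval of the log2FC lay within -1 and 1 for 7 of the 10 factors and for 90.2% of all genes. In bulk tissue, fewer cells of a type and less RNA per cell cannot be told apart.

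**Figure D1:**
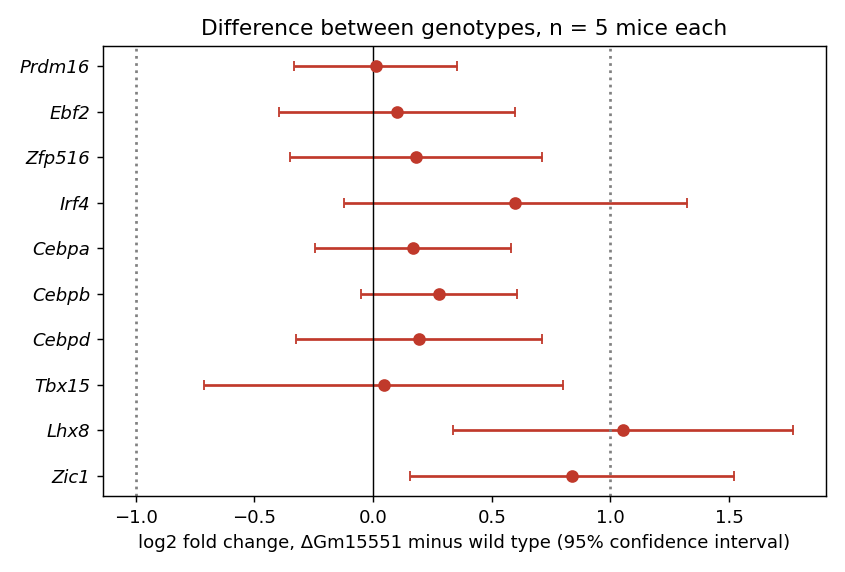
Difference between genotypes for each factor, as log2FC on the horizontal axis (points, ΔGm15551 minus wild type, n = 5 mice each) with its 95% confidence interval (bars). Dotted lines mark -1 and 1. The intervals of Lhx8 and Zic1 lie above 0, those of the other 8 factors include 0, and those of Irf4, Lhx8 and Zic1 reach past 1.

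The RNA levels of the factors covered a wide range. Per kb of exon, Cebpb stood highest at 300.3 ± 53.0 CPM per kb (SD, n = 10), above 98.9% of the genes tested, followed by Cebpa at 177 ± 40.7, above 98.2%. Ebf2 at 6.198 ± 1.73 and Prdm16 at 3.52 ± 0.614 CPM per kb were in the middle of all genes, above 66.1% and 52.6% of them. Below these came Irf4 at 2.08 ± 1.07, Zic1 at 1.89 ± 1.02, Cebpd at 1.59 ± 0.448, Zfp516 at 1.59 ± 0.488, Tbx15 at 1.07 ± 0.507 and Lhx8 at 0.851 ± 0.495 CPM per kb. Lhx8, the lowest, was above 21.2% of the genes tested. Within single mice Cebpb exceeded Cebpa, Cebpa exceeded Ebf2 and Ebf2 exceeded Prdm16 in 10 of 10 mice, and Prdm16 exceeded Irf4 in 9 of 10. From Irf4 downwards the mean log2 ratio of neighbours in this order was smaller than its SD over the mice. The log2 ratio of Irf4 to Zic1 was 0.15 ± 0.82 (SD, n = 10), that of Zic1 to Cebpd 0.14 ± 0.95 and that of Cebpd to Zfp516 0.02 ± 0.74. The higher gene of these pairs exceeded the lower in 6, 7 and 4 of 10 mice. The log2 ratio of Zfp516 to Tbx15 was 0.62 ± 0.87, with Zfp516 higher in 9 of 10 mice, and that of Tbx15 to Lhx8 was 0.39 ± 0.83, with Tbx15 higher in 8 of 10.

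**Figure D2:**
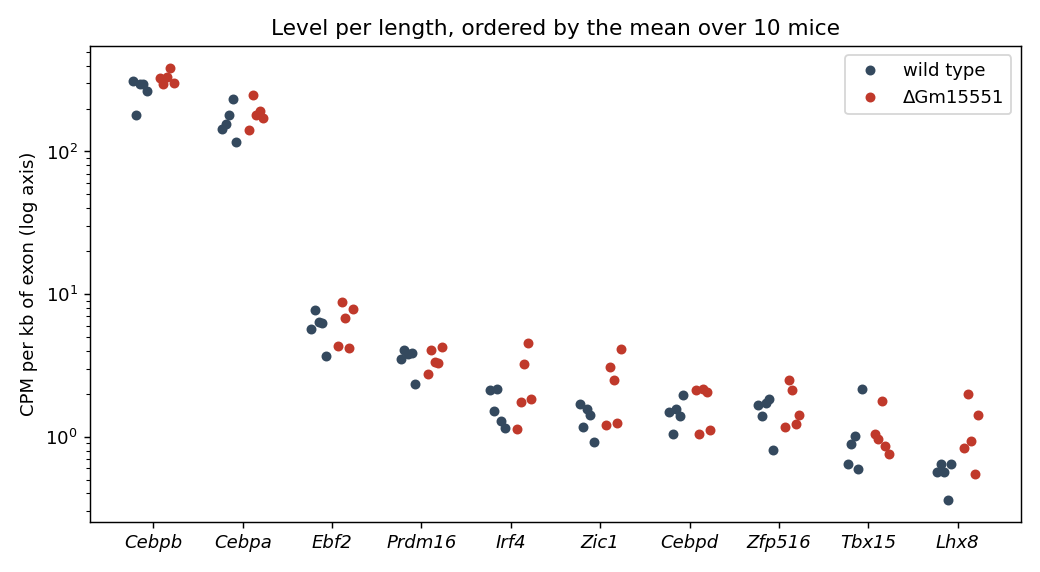
Level of each factor per kb of exon (TMM-scaled CPM per kb, log axis), 1 point per mouse, with the factors ordered by their mean over 10 mice. Cebpb and Cebpa lie at mean levels of 300.3 and 177, the next factor, Ebf2, at 6.198 and Lhx8 at 0.851 CPM per kb.

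Promoter sequences are shown for the 2 factors with the highest level, Cebpb and Cebpa, and for the 2 with the largest difference between genotypes, Lhx8 and Zic1. They are the bases just upstream of the RefSeq start on GRCm38.p6, up to 250, written 5′ to 3′ on the strand of the gene. Bases that GENCODE M21 places in an exon were left out, which were 99 bases for Lhx8 and 42 for Zic1. RefSeq entries were matched for 6 of the 10 factors. Capitals mark matches to TGACG (the core of the cAMP response element), TATAAA (the TATA box) and CCAAT (the CCAAT box), searched on both strands. The windows are chr2:167688665-167688914 (plus strand) for Cebpb, chr7:35119043-35119292 (plus strand) for Cebpa, chr3:154330660-154330810 (minus strand) for Lhx8 and chr9:91365811-91366018 (minus strand) for Zic1.
Cebpb: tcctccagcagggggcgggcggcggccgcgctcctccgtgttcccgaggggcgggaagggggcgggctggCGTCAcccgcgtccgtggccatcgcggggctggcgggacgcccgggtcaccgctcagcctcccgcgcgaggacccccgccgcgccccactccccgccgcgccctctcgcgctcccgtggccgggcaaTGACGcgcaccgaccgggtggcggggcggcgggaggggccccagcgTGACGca
Cebpa: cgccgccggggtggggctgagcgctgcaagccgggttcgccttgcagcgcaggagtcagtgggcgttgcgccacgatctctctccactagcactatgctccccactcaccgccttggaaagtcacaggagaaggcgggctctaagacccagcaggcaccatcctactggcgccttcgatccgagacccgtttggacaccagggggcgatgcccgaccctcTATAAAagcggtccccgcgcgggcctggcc
Lhx8: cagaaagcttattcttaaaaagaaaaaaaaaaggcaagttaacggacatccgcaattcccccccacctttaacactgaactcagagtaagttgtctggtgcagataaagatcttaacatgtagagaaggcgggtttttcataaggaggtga
Zic1: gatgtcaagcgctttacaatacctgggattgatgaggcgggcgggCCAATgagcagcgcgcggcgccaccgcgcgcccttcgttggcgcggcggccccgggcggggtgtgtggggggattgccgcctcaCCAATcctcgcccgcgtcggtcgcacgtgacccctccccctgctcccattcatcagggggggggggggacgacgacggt

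The Cebpb window consists of G and C to 81.6%, the Cebpa window to 66.4%, the Zic1 window to 71.2% and the Lhx8 window to 39.7%. In Cebpb, TGACG matched 3 times, at 180 (on the opposite strand), 53 and 7 bases before the start. TGACG occurred in 17.8% of 32851 RefSeq promoter windows of 250 bases. Cebpa held TATAAA at 30 bases before its start, a match present in 12.4% of windows, and Irf4 held it at 26. Zic1 held CCAAT at 205 and 121 bases before its start and Prdm16 at 98, beside 33.8% of all windows. None of the 3 motifs was found in the Lhx8 window of 250 bases. These matches describe letters and carry no statement on binding.

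Prdm16 (chr4:154316125-154636873, minus strand, GRCm38) and Ebf2 (chr14:67233292-67430918, plus strand) encode the pair of regulators closest to brown commitment. In wild type replicates 2, 3, 5, 6 and 7, an order kept for wild type in all that follows, Prdm16 measured 32.5, 37.7, 35.7, 35.8 and 21.8 CPM. In ΔGm15551 replicates 1, 2, 4, 5 and 7, likewise kept in order, it measured 25.5, 37.7, 31.3, 30.6 and 39.8 CPM. Wild type replicate 7 was the lowest mouse and ΔGm15551 replicate 7 the highest, and the groups overlapped over nearly their whole range. The log2FC was 0.01 with a standard error (SE) of 0.16 and a 95% confidence interval from -0.33 to 0.36 (edgeR, adjusted p = 0.9998). Prdm16 also had the narrowest interval but for Cebpb, so a difference of 1 log2 unit in either direction lay outside it.

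Ebf2 measured 39.6, 54.0, 44.1, 43.7 and 25.6 CPM in wild type and 30.2, 61.5, 47.0, 29.1 and 54.7 CPM in ΔGm15551. Wild type replicate 7 was again the lowest, and 2 ΔGm15551 mice, replicates 2 and 7, lay above all wild type mice while replicates 1 and 5 lay near the lowest. The log2FC was 0.10 (SE 0.23, 95% confidence interval -0.39 to 0.60, edgeR, adjusted p = 0.9998). The antisense gene Gm10860 lies on the opposite strand over 424 exonic bases of Ebf2, and 5.43% of the 31-base words of Ebf2 transcripts also occur in other genes on either strand. Whether the authors' counting used strand is not given in the sources used here, so reads from these stretches cannot be told apart.

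Prdm16 and Ebf2 varied together over the 10 mice. Pearson's r of their log2 CPM was 0.890 (permutation p = 0.00019, adjusted p = 0.00855 over the 45 pairs of factors) and Spearman's rho was 0.867 (permutation p = 0.00196, adjusted p = 0.0882). Without the 2 mice farthest from the median of Prdm16, r was 0.796, and without those farthest in Ebf2 it was 0.882. Among the 7 mice of the lower number series r was 0.865, and on deviations from the genotype means over all 10 mice it was 0.891. By Pearson's r this was the only pair of the 45 at an adjusted p under 0.05, and by Spearman's rho there was none. The next pairs by p were Prdm16 with Cebpd (r = -0.776, rho = -0.830, adjusted permutation p = 0.0743 and 0.102) and Ebf2 with Zfp516 (r = 0.778, rho = 0.685, adjusted permutation p = 0.0743 and 0.226). Among all genes tested, many were closer to either factor, so an r of this size is not particular to the pair. The gene in place 5 by r with Prdm16 had r = 0.971, and that in place 5 with Ebf2 had r = 0.976. By rho, a gene ranked 227 with Prdm16 stood at 0.879, above the rho of Ebf2.

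The level of Ebf2 also moved with a feature of whole libraries. For each mouse the median deviation of the longest 20% of genes (at least 7859 bases of exon) minus that of the shortest 20% (at most 2561 bases) was taken, over 10342 genes averaging more than 50 counts. On the log2 scale this score was -0.02, 0.25, 0.04, 0.09 and -0.25 in wild type and -0.14, 0.16, 0.13, -0.30 and 0.03 in ΔGm15551, so low values occurred in both genotypes (exact permutation test of the group means, two-sided, p = 0.730). Ebf2 followed it with r = 0.909 (permutation p = 0.00062, adjusted p = 0.0124 over 20 relations of 10 factors with 2 scores), rho = 0.830 (adjusted p = 0.0492) and r = 0.815 without the 2 mice farthest from the median score. For Prdm16 r was 0.735 and rho 0.697 (adjusted permutation p = 0.0703 and 0.102). Zfp516 was close to Prdm16 here, with r = 0.719 and rho = 0.697 (adjusted permutation p = 0.0703 and 0.102). Cebpd went the other way, with r = -0.675 and rho = -0.552 (adjusted permutation p = 0.0995 and 0.260). A second score, of genes rich minus poor in G and C, was described by the same 20 relations. With it Ebf2 had r = -0.772 and rho = -0.782 (adjusted permutation p = 0.0487 and 0.0695), and r = -0.912 without the 2 farthest mice. Prdm16 had r = -0.577 and rho = -0.830 (adjusted permutation p = 0.210 and 0.0492), and r = -0.895 without the 2 farthest mice. Zfp516 had r = -0.423 and rho = -0.576 (adjusted permutation p = 0.355 and 0.251), and r = -0.850 without them. Cebpd had r = 0.696 and rho = 0.721 (adjusted permutation p = 0.0703 and 0.102), and r = 0.612 without them. After the length score was regressed out, r between Prdm16 and Ebf2 was 0.785. With the length score as a covariate the log2FC of Ebf2 was 0.19, and with the GC score it was 0.30 (edgeR, unadjusted p = 0.0803 and 0.0634), both alternatives chosen after seeing the data. The part of library composition in the levels of Prdm16, Ebf2, Zfp516 and Cebpd was not tested beyond these values.

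The genes whose pattern over the 10 mice was most like Prdm16 were Acat1 (r = 0.979), a mitochondrial thiolase, and Noa1 (r = 0.978), a mitochondrial GTPase. For Ebf2 they were Trappc8 (r = 0.987), a subunit of a vesicle tethering complex, and Tbc1d15 (r = 0.985), a Rab GTPase activator. These are rankings over 13732 genes that share the same libraries, given as a description.

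Zfp516 and Irf4 stand for the factors that respond to cold and adrenergic signals. Zfp516, on chromosome 18 (chr18:82910663-83005314, plus strand, GRCm38), encodes a zinc finger factor that activates Ucp1. It measured 13.8, 11.6, 14.2, 15.2 and 6.67 CPM in wild type and 9.76, 20.5, 17.6, 10.2 and 11.7 CPM in ΔGm15551. Replicates 2 and 4 of ΔGm15551 lay above all wild type mice and wild type replicate 7 below all others. The log2FC was 0.18 (SE 0.25, 95% confidence interval -0.35 to 0.71, edgeR, adjusted p = 0.9998). Atg2b (r = 0.954), a lipid transfer protein of autophagy, and Sav1 (r = 0.937), a Hippo pathway scaffold, were the genes most like it.

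Irf4 (chr13:30749226-30766976, plus strand, GRCm38), an interferon regulatory factor that works with PGC-1α in cold-exposed brown fat, measured 10.4, 7.45, 10.6, 6.31 and 5.65 CPM in wild type. In ΔGm15551 it measured 5.58, 8.60, 15.9, 22.3 and 8.95 CPM. Replicates 4 and 5 of ΔGm15551 stood above every wild type mouse, while replicate 1 was the lowest of all 10. The spread was wide in ΔGm15551, with a coefficient of variation of 55.2% against 28.4% in wild type. The log2FC was 0.60 (SE 0.33, 95% confidence interval -0.12 to 1.32, edgeR, unadjusted p = 0.0963, adjusted p = 0.9998) and the exact permutation p was 0.270. It was 0.27 without ΔGm15551 replicate 5 and 0.78 without ΔGm15551 replicate 1. Irf4 is also expressed in lymphocytes and macrophages. The summed level of 9 leukocyte genes ran from 38.0 to 63.9 CPM in ΔGm15551 and from 40.4 to 68.6 CPM in wild type, with none of the 9 at 0 in any mouse, and at 40.2 and 39.8 CPM replicates 4 and 5 of ΔGm15551 were among the lower mice. Of these 9 genes 5 were tested, 0 were called, and all 5 had a log2FC under 0. The part of leukocyte RNA in the level of Irf4 was not tested. Pla2g6 (r = 0.947), a phospholipase, and Tnip1 (r = 0.943), an inhibitor of NF-κB signalling, were the genes most like Irf4.

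**Figure D3:**
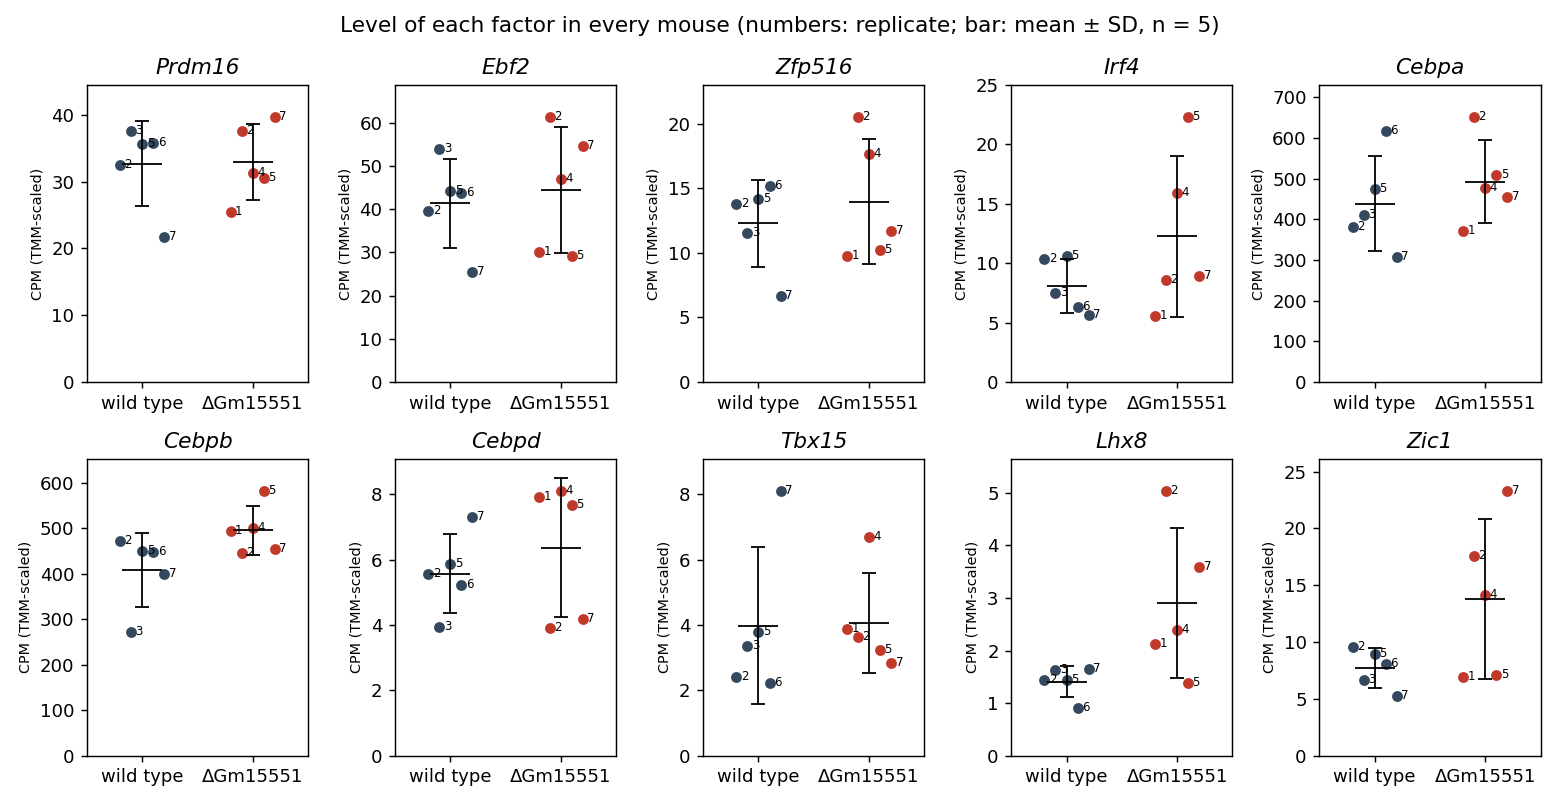
Level of each factor in every mouse (TMM-scaled CPM, linear axes from 0), with wild type at the left and ΔGm15551 at the right of each panel. Small numbers give the replicate, and bars give the mean ± SD of 5 mice. Lhx8 has 4 of 5 ΔGm15551 mice above all wild type mice, and Zic1, Cebpb and Cebpd have 3 of 5.

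The C/EBP factors are basic leucine zipper proteins. Cebpb and Cebpd act early in adipogenesis, and Cebpa acts later, jointly with Pparg. Cebpa (chr7:35119293-35121928, plus strand, GRCm38) measured 380.4, 411, 475, 616 and 307 CPM in wild type and 372, 652, 477, 508 and 455 CPM in ΔGm15551. Only ΔGm15551 replicate 2 lay above the highest wild type mouse, and wild type replicate 7 was the lowest of all. The log2FC was 0.17 (SE 0.19, 95% confidence interval -0.24 to 0.58, edgeR, adjusted p = 0.9998). It was 0.0462 without ΔGm15551 replicate 2 and 0.32 without wild type replicate 6, and among replicates 2, 5 and 7 of either genotype alone it was 0.47 (edgeR, unadjusted p = 0.0489). Txndc5 (r = 0.980), a disulfide isomerase of the endoplasmic reticulum, and Ext2 (r = 0.973), an enzyme of heparan sulfate synthesis, were the genes most like it.

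Cebpb (chr2:167688915-167690418, plus strand, GRCm38), a gene of a single exon, measured 473, 271, 450.2, 448 and 400.1 CPM in wild type and 493, 446, 501, 583 and 453 CPM in ΔGm15551. Replicates 1, 4 and 5 of ΔGm15551 lay above all wild type mice, and wild type replicate 3 lay far below the other 9 mice. The log2FC was 0.28 (SE 0.15, 95% confidence interval -0.05 to 0.61, edgeR, unadjusted p = 0.0912, adjusted p = 0.9998), and the exact permutation p was 0.0556. Without wild type replicate 3 the log2FC was 0.16.

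Cebpb is rich in G and C, at 67.2% of its transcript bases, the highest share among the 10 factors. The score of GC content, the median deviation of the 20% of genes richest in G and C minus that of the 20% poorest, was lowest in wild type replicate 3 at -0.49 and highest in ΔGm15551 replicate 5 at 0.52. These are also the mice with the lowest and the highest Cebpb. The r of Cebpb with this score was 0.775 (permutation p = 0.0211, adjusted p = 0.0703) and its rho was 0.527 (adjusted p = 0.276), but r was -0.340 without these 2 mice, so the relation rests on them. No difference of the score between genotypes was detected (exact permutation test of the group means, two-sided, p = 0.444), though 5 mice per group could miss one. This score correlated with the length score at r = -0.926. With the score as a covariate, an alternative chosen after seeing the data, the log2FC of Cebpb was 0.18 (edgeR, unadjusted p = 0.156). The gene Tmem189 on the opposite strand overlaps 312 exonic bases of Cebpb, so 19.6% of the 31-base words of Cebpb occur in another gene when strand is ignored. Fbxl16 and Pcif1, both at r = 0.942, an F-box protein and an mRNA cap methyltransferase, were the genes most like Cebpb.

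**Figure D4:**
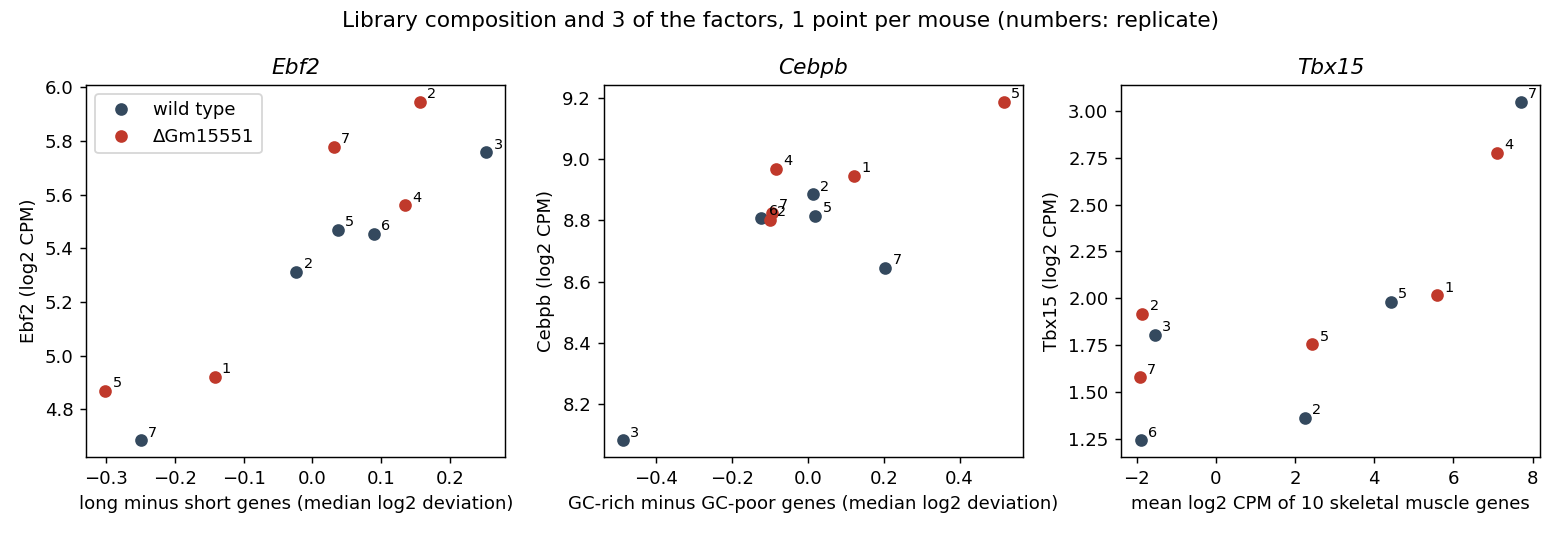
Level of 3 factors (log2 CPM, vertical axes) against a measure of each library (horizontal axes), 1 point per mouse with its replicate number. Ebf2 is set against the score of long minus short genes (r = 0.909), Cebpb against the score of GC-rich minus GC-poor genes (r = 0.775, and -0.340 without the 2 outermost mice), and Tbx15 against the mean log2 CPM of 10 skeletal muscle genes, where wild type replicate 7 and ΔGm15551 replicate 4 lie highest on both axes.

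Cebpd (chr16:15887286-15891031, plus strand, GRCm38) was the lowest of the 3 per kb of exon. It measured 5.55, 3.94, 5.87, 5.21 and 7.29 CPM in wild type and 7.92, 3.91, 8.11, 7.67 and 4.18 CPM in ΔGm15551. The ΔGm15551 mice formed a high set of replicates 1, 4 and 5, above all wild type mice, and a low set of replicates 2 and 7. The log2FC was 0.19 (SE 0.24, 95% confidence interval -0.33 to 0.71, edgeR, adjusted p = 0.9998). It was 0.0412 with the GC score as a covariate, 0.0891 without ΔGm15551 replicate 4 and 0.32 without ΔGm15551 replicate 2. Spidr, on the opposite strand, overlaps 562 exonic bases of Cebpd, and 14.2% of its 31-base words occur in another gene when strand is ignored. Synpo (r = 0.965), an actin-binding protein, and Gjc1 (r = 0.922), a gap junction protein, were the genes most like it. Of 4 further genes of the family, 3 were tested and 0 were called. Cebpg, a partner for other C/EBP proteins, had the smallest p of these at a log2FC of 0.15 (SE 0.14, edgeR, unadjusted p = 0.300), and Cebpz followed at -0.10 (SE 0.11, edgeR, unadjusted p = 0.378).

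Lhx8 (chr3:154306294-154330659, minus strand, GRCm38), which encodes a LIM homeodomain factor, had the largest log2FC of the 10. Its counts were 16, 19, 20, 14 and 16 in wild type and 29, 71, 32, 18 and 48 in ΔGm15551. As CPM these were 1.43, 1.63, 1.43, 0.911 and 1.64 in wild type and 2.13, 5.04, 2.38, 1.38 and 3.58 in ΔGm15551. Every ΔGm15551 mouse but replicate 5 lay above all wild type mice, which were close to each other with a coefficient of variation of 21.0% against 49.4% in ΔGm15551. The log2FC was 1.05 (SE 0.33, 95% confidence interval 0.34 to 1.77, edgeR, unadjusted p = 0.00715, adjusted p = 0.9998), and the exact permutation p was 0.0397, where 0.00794 is the smallest that 252 assignments allow.

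The log2FC of Lhx8 stayed above 0 in all 25 alternatives. It ranged from 0.76, without ΔGm15551 replicate 2, to 1.23, without ΔGm15551 replicate 5, and the unadjusted p was under 0.05 in 24 of the 25, with every adjusted p at 0.835 or above. The exception was the fit that left out wild type replicates 5, 6 and 7, all of the higher series, leaving 5 against 2 mice and gave 0.92 (edgeR, unadjusted p = 0.0804). With 14 to 71 counts per mouse, Lhx8 sat low in the table, and no other gene shared a 31-base word with it on either strand. The genes most like it were 1810034E14Rik (r = 0.878) and Atg7 (r = 0.873), an enzyme of autophagy, the weakest likeness found for any of the 10 factors. On deviations from the genotype means neither was among the 10 genes most like Lhx8.

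Zic1 (chr9:91358058-91365810, minus strand, GRCm38), which encodes a zinc finger factor of early development and is a classical marker of interscapular brown fat, measured 9.58, 6.68, 8.94, 8.07 and 5.24 CPM in wild type. In ΔGm15551 it measured 6.90, 17.5, 14.1, 7.13 and 23.3 CPM. Replicates 2, 4 and 7 of ΔGm15551 lay well above all wild type mice, and replicates 1 and 5 lay within the wild type range. The log2FC was 0.84 (SE 0.31, 95% confidence interval 0.16 to 1.52, edgeR, unadjusted p = 0.0199, adjusted p = 0.9998), and the exact permutation p of the CPM was 0.119. It ranged from 0.57 without ΔGm15551 replicate 7 to 1.01 without ΔGm15551 replicate 1, and the unadjusted p was under 0.05 in 17 of the 25 alternatives. With wild type replicates 5, 6 and 7 left out it was 0.76 (edgeR, unadjusted p = 0.164).

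Zic4, the neighbour of Zic1 on the opposite strand, shares 60 exonic bases with it. It measured between 1.07 and 1.93 CPM in ΔGm15551 and between 0.514 and 2.06 CPM in wild type, with overlapping groups and a log2FC of 0.37 (SE 0.33, edgeR, unadjusted p = 0.288). Hcn2 (r = 0.969), a pacemaker channel, and Atn1 (r = 0.876), a transcriptional corepressor, were the genes most like Zic1. Lhx8 and Zic1 were both high in ΔGm15551 replicates 2 and 7 and had an r of 0.747 with each other (rho = 0.455, adjusted permutation p = 0.104 and 0.483), which was 0.255 without the 2 mice farthest from the median.

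Tbx15 (chr3:99240381-99354259, plus strand, GRCm38), a T-box factor expressed in brown fat and in fast muscle fibres, measured 2.42, 3.34, 3.79, 2.21 and 8.11 CPM in wild type and 3.89, 3.62, 6.70, 3.22 and 2.83 CPM in ΔGm15551. One mouse stood apart in each genotype, wild type replicate 7 and ΔGm15551 replicate 4, and the other 8 lay between 2.21 and 3.89. The log2FC was 0.05 (SE 0.35, 95% confidence interval -0.71 to 0.80, edgeR, adjusted p = 0.9998).

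The mice with the highest Tbx15 were also those with the most counts on muscle genes. The summed level of 10 skeletal muscle genes was 56.4, 2.91, 285, 1.63 and 3006 CPM in wild type and 827, 1.42, 1959, 77.1 and 1.79 CPM in ΔGm15551. Between 2 and 4 of the 10 muscle genes were at 0 in ΔGm15551 replicates 2 and 7 and wild type replicates 3 and 6, and none in the other 6 mice. Without the 2 libraries with most muscle counts, a choice made after seeing the data, the log2FC of Tbx15 was 0.21 (edgeR, unadjusted p = 0.393), and with a muscle score as covariate it was 0.09. Wild type replicate 7 alone moved it from 0.05 to 0.46 when left out. The genes most like Tbx15 were Ank1 (r = 0.937), an ankyrin, and Phkg1 (r = 0.921), the muscle form of a phosphorylase kinase subunit. The myogenic regulators Myod1, Myf5, Myf6, Myog, Pax3 and Pax7 were too low to be tested. The part of muscle RNA in the level of Tbx15 was not tested beyond these values.

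Relatives of the factors and genes of the same pathway were counted in the same way. Of 32 paralogs from the ZIC, TBX, LHX, IRF, EBF and PRDM families, 19 were tested and 0 were called, with 6 above 0, 13 below and a median log2FC of -0.08. Tbx18, a T-box factor of mesenchymal cells, was the only one at an unadjusted p under 0.05. It measured 3.13, 3.51, 3.004, 3.58 and 4.62 CPM in wild type and 3.60, 1.99, 2.46, 1.99 and 2.24 CPM in ΔGm15551, so that only ΔGm15551 replicate 1 reached the wild type range (log2FC -0.53, SE 0.21, edgeR, unadjusted p = 0.0263, adjusted p = 0.9998). Irf5, of macrophages, came next at a log2FC of -0.55 (SE 0.35, edgeR, unadjusted p = 0.140).

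Of 18 partners and antagonists of PRDM16, all were tested, 0 were called and 0 had an unadjusted p under 0.05, and 14 had a log2FC above 0 with a median of 0.07. Nrip1, a nuclear receptor corepressor, and Tle3, a corepressor that opposes PRDM16, had the smallest p, at log2FC values of 0.33 and 0.21 (edgeR, unadjusted p = 0.0803 and 0.0846). Ppargc1a, which encodes PGC-1α, was at -0.07 (SE 0.28). Of 26 other adipogenic factors, 23 were tested and 0 were called, and Srebf1, of lipid synthesis, and Klf11 had the smallest p, at -0.31 and 0.21 (edgeR, unadjusted p = 0.0652 and 0.121). Pparg was at 0.05 (SE 0.15) and Ebf1, the close relative of Ebf2, at 0.17 (SE 0.14).

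A list of 18 genes typical of brown adipocytes showed 0 calls as well. Which of them the 10 factors act on was not tested. All 18 were tested for a difference, 10 with a log2FC above 0 and 8 below. Their median was 0.01, and every 95% confidence interval lay within -1 and 1. Fbxo31 and Ppara had the smallest p, at 0.36 and 0.18 (edgeR, unadjusted p = 0.195 and 0.397), and Ucp1 was at 0.15 (SE 0.18). Of 16 genes of white and beige fat, 7 were tested, 0 were called and 2 had an unadjusted p under 0.05, both lower in ΔGm15551. Lep, the leptin gene, had a log2FC of -1.14 (SE 0.31) and Hoxc8, a homeobox gene of posterior fat depots, -0.75 (SE 0.34), with unadjusted p-values of 0.00315 and 0.0468 (edgeR, adjusted p = 0.9998 for both).

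Markers of other cells and signals were given by the same count. Among 10 early response genes tested, Egr1 alone had an unadjusted p under 0.05 at a log2FC of 0.98 (SE 0.42, edgeR, unadjusted p = 0.0375), and at 18.3 and 9.90 CPM replicates 1 and 5 of ΔGm15551 stood above the others, all between 2.98 and 5.52. Junb, at 0.23, had the next smallest p. Among 9 stroma and precursor genes tested, Pi16, a marker of fibroblast-like precursors, was at 0.81 (SE 0.28, edgeR, unadjusted p = 0.0120). Dlk1, of preadipocytes, had the next smallest p at 0.35 (SE 0.53, edgeR, unadjusted p = 0.527), and Pdgfra, the general marker of these cells, was at 0.01 (SE 0.23). In the lists of glucocorticoid response, general adipocyte, endothelial, smooth muscle and pericyte, Schwann cell and red blood cell genes, 0 genes were called and 0 had an unadjusted p under 0.05, with medians between -0.09 and 0.11.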

How the data were processed

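Poly A RNA of iBAT from 5 ΔGm15551 and 5 wild type mice was sequenced by the authors in paired-end reads (NEBNext Ultra II RNA kit, NovaSeq). Reads were filtered with cutadapt and quantified with salmon against GENCODE M22 on GRCm38 (or M22 with RNAcentral), in versions not given in the sources used here. The values deposited by the authors are estimated counts (expected counts) per gene as whole numbers, 1 column per mouse, not scaled to depth. The step that summed and rounded them and any use of strand are not given in the sources used here. Salmon shares out reads that fit several genes.

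The analysis used edgeR 4.0.16 in R 4.3.3. Of 54347 records, 30984 had a count, and filterByExpr (minimum count 10, minimum total 15) kept 13732. Libraries were scaled by TMM, and glmQLFit (robust) and glmQLFTest were run with genotype as the only term. The Benjamini-Hochberg adjustment ran over all genes tested, with a threshold of 0.05. The standard error comes from the F statistic. The fit was tested on simulated data before use. Single CPM values were compared by exact permutation over 252 assignments, two-sided, and correlations by 100000 permutations. log2 CPM has a prior count of 2. The biological coefficient of variation was 0.229, and totals of 9680976 to 15771170 counts per mouse limit precision for low genes. The floor of 3 counts covers counting error only.

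Positions and lengths (union of exons) are from GENCODE M21, where 99.5% of gene IDs were found, and promoters are from RefSeq (GRCm38.p6). The smallest chi-square per degree of freedom between mice of a group was 12.4, so no library was a copy.

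The members, gene lists and tests were chosen with earlier results of these data known. Genes were named by a rule: the 10 factors, the 2 genes with the highest r to each, from each list any gene at an adjusted p under 0.05 and the 2 with the smallest p, and Gm15551, Ucp1, Pparg, Ppargc1a, Ebf1, Zic4, Cebpg and Pdgfra. For the lists of general adipocyte, endothelial, pericyte, Schwann, red blood cell, leukocyte, muscle and glucocorticoid genes, counts, medians or summed levels are given in place of the 2 genes. The 6 myogenic regulators named as too low to be tested and the genes that overlap a factor on the opposite strand fall outside the rule. Alternatives were other size factors, library totals, 2 other filters, non-robust estimation, DESeq2 1.42.0, limma-voom (limma 3.58.1), leaving out each mouse, a replicate block, the same 6 mice without it, leaving out 3 wild type mice, a muscle score covariate and thinning. A pair of covariates for gene length and GC content and the fit without the 2 libraries with most muscle counts were chosen after seeing the data.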

Additional observations from a re-analysis of the deposited data

Results flagged for a closer look

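Of 20 groups of 5 values (10 factors in 2 genotypes), 2 held a mouse far from the other 4, and about 1 in 20 such groups is expected to do so by chance. Both belong to Tbx15. In ΔGm15551, replicate 4 stood at 6.697 CPM against 2.83 to 3.89 CPM in the other 4 mice, a gap of 0.727 of the range of the group. In wild type, replicate 7 stood at 8.112 CPM against 2.21 to 3.79 CPM, a gap of 0.733 of the range. The critical value for 5 samples is 0.71. These are the 2 libraries with the most counts on skeletal muscle genes, at 1959 and 3006 CPM summed over 10 genes, and the part of muscle RNA in these values was not tested.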

How the results depend on the processing

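In all 25 alternatives 0 of the 10 factors and 0 genes of the lists were called at an adjusted p under 0.05. Between 0 and 3 factors had an unadjusted p under 0.05, and there were 0 when the 3 mice of the higher series were left out. The log2FC kept its sign in all 25 for Irf4, Cebpa, Cebpb, Lhx8 and Zic1. With 1 mouse left out, it ran from -0.104 to 0.0897 for Prdm16, from -0.0426 to 0.22 for Ebf2, from -0.00089 to 0.29 for Zfp516 and from -0.21 to 0.46 for Tbx15. With wild type replicates 5, 6 and 7 left out it was -0.0892 for Prdm16 and -0.0717 for Ebf2. Without wild type replicate 7 and ΔGm15551 replicate 4 it was -0.0853 for Prdm16, -0.0472 for Ebf2 and -0.0671 for Zfp516. The cause of these changes of sign was not tested.

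Replicate numbers occur in both groups for 6 mice. The correlation of their deviations from the group means was -0.07, 0.05 and -0.39 for numbers 2, 5 and 7. Whether mice of the same number share more than the number cannot be told from these values. With the replicate block the log2FC was -0.29 for Cebpd and -0.41 for Tbx15, and in the same 6 mice without the block -0.25 and -0.55. For Cebpa it was 0.48 with the block and 0.47 without it, for Prdm16 0.28 and 0.26, for Ebf2 0.38 and 0.41, for Zfp516 0.29 in both and for Cebpb 0.16 in both. The block left 1 factor at an unadjusted p under 0.05 and the same mice without it 3. Of the 20 genes named as most like a factor, 11 were among the 10 most like it by Spearman's rho and 17 on deviations from the genotype means, where both genes named for Lhx8 and 1 for Zic1 were not. With the longest transcript as length, Ebf2 was at 8.25 CPM per kb and Zfp516 ranked above Cebpd. Lhx8 had only 14 to 71 counts per mouse.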
